A study of Mus musculus with 6 samples.

Results

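Complement genes were followed in cells taken from mouse tumours, as 9 genes named for their part in the cascade: the C1q chain genes C1qa, C1qb and C1qc, the central components C3 and C4b, the alternative pathway factors Cfb and Cfp, and the receptors C3ar1 and C5ar1. They were found by their symbols in the deposited tables, where all 9 of 9 had a row among 17191 genes, and all 9 passed the filter on low counts that left 12721 genes to test. Messenger RNA was sequenced from 6 libraries of cells recovered from CT26 tumours, a colorectal carcinoma line of the mouse grown under the skin. The hosts were BALB/c females, 6 to 8 weeks old. The TP-18 group (3 libraries) received the compound TP-18, known here only by its code name, by mouth at 50 mg/kg once a day for 3 weeks, and the vehicle group (3 libraries) received vehicle over the same time. Mice of both groups carried the same tumour line and entered treatment at tumour volumes of 100 to 200 mm3. The labels disagree on the cells: the series text names sorted CD11b+F4/80+CD206+ tumour-associated macrophages, the treatment protocol names CD11b+ cells taken on magnetic beads, and the sample fields name the carcinoma line. Nothing says that each library came from its own mouse, so the p-values measure the spread between these libraries, which may be partly technical.

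Complement is a cascade of plasma and cell-surface proteins that marks microbes, dying cells and immune complexes. C1q, built from the A, B and C chains, binds such targets and starts the classical pathway, in which C4 and then C3 are cleaved and attach to the surface through a reactive thioester. The alternative pathway amplifies C3 cleavage through factor B and is stabilised by properdin, and the released fragments C3a and C5a signal to myeloid cells through C3ar1 and C5ar1. Macrophages are a main source of C1q, and C1q is widely used as a marker of tumour-associated macrophages.

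No member differed between the groups beyond the spread of the libraries. By edgeR's quasi-likelihood test, 0 of 9 passed at a Benjamini-Hochberg adjusted p of 0.05, where 0.11% of all tested genes did (14 genes, 0.0236% higher and 0.0865% lower). At an unadjusted p under 0.05 the members also counted 0, against 16.3% of tested genes, and the other tools called 0 of 9 as well. DESeq2 called 4.54% of the 12472 genes to which it gave an adjusted p, and limma-voom called 0.118% of the 12721 genes. In every member the groups overlapped, whereas they did not overlap in 23.3% of tested genes. All 9 estimates were negative with TMM scaling, with a median log2 fold change of -0.27 beside 0.02 over all tested genes, of which 47.4% were negative. With library totals as scaling, 7 of 9 were negative and the median was -0.09, while the median over all genes moved to 0.20. The median of the members thus lay below that of all genes under both scalings. Several members moved together across the same libraries, so the 9 signs are not independent, and no test was run on them. In deposited FPKM values, which use library totals, the group means of several members nearly coincided. Estimates of C3, C4b, C3ar1 and C5ar1 were negative under all 15 alternative settings, while those of C1qa, C1qb, C1qc, Cfb and Cfp changed sign under at least 1.

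Libraries had 16371128 to 17597645 counts. TMM factors were 1.055 to 1.069 in the TP-18 libraries and 0.9237 to 0.9624 in the vehicle libraries, which is why CPM on TMM-scaled sizes and FPKM place the groups a little differently. Itgam, the gene of CD11b, averaged 889.8 ± 112 CPM in TP-18 and 1012 ± 272 CPM in vehicle libraries. Mrc1, the gene of CD206, averaged 776 ± 136 CPM in TP-18 and 977 ± 412 CPM in vehicle libraries. Adgre1, the gene of F4/80, averaged 191 ± 75.7 CPM in TP-18 and 192 ± 98.0 CPM in vehicle libraries (SD, n = 3 each). The carcinoma keratin gene Krt20 was also abundant, at 239 to 507 CPM in TP-18 and 339 to 522 CPM in vehicle libraries, whereas Epcam stayed at or below 1.07 CPM.

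The C1q genes lie side by side on the minus strand of chromosome 4 on GRCm38. C1qb (Entrez 12260) spans 136880129 to 136886187, C1qc (12262) spans 136889804 to 136893065 and C1qa (12259) spans 136895917 to 136898803, together 18675 bases, and each has 3 exons. C3 (12266) lies at 57203970 to 57228136, C4b (12268) at 34728380 to 34743882 and Cfb (14962) at 34856374 to 34862518, all on chromosome 17. C3ar1 (12267) lies at 122847138 to 122856161 on chromosome 6, C5ar1 (12273) at 16246743 to 16259540 on chromosome 7 and Cfp (18636) at 20925454 to 20931555 on chromosome X. All 9 are annotated as protein-coding on the minus strand. The protein-coding gene Gm20547, not analysed here, shares 2246 exon bases (79.5%) with Cfb on the same strand, so that their reads cannot be told apart there, and C4b has a near-identical neighbour, C4a, not analysed here. Values of Cfb and C4b are uncertain to that extent.

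RefSeq promoter windows of GRCm38.p6 (250 bases before to 50 after the annotated start) were matched for 6 of the 9 members: C1qb, C1qc, C3, Cfp, C3ar1 and C5ar1. Below are C1qb (chr4:136886151-136886450, minus strand) and C1qc (chr4:136892865-136893164, minus strand), shown because their genes moved together across libraries, and C3ar1 (chr6:122856108-122856407, minus strand), shown because it holds a motif match. Capitals mark motif matches and all other bases are in lower case.
C1qb: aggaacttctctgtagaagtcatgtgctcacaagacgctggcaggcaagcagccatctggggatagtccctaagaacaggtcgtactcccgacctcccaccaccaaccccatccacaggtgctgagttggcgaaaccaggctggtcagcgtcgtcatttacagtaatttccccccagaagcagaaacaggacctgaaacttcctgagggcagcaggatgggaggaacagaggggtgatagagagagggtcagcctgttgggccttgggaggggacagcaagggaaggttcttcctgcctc
C1qc: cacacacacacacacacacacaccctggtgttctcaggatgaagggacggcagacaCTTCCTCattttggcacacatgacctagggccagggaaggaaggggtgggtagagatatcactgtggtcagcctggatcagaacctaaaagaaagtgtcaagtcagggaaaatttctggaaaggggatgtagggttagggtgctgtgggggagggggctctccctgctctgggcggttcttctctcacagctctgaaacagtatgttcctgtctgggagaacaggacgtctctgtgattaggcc
C3ar1: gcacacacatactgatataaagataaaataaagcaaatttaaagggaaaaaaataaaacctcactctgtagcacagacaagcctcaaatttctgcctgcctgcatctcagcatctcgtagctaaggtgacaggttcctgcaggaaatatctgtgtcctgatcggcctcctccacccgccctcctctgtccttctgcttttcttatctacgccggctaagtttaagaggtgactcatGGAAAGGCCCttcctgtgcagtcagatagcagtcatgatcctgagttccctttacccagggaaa

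Of 4 motifs searched on both strands, 1 each was found in C1qc and C3ar1, with no overlap. The capitals in C1qc are the PU.1 motif GAGGAAG on the opposite strand, at positions -194 to -188 from the start. This motif stood in 13.63% of all 32851 windows of the same length. The capitals in C3ar1 are the NF-kB motif (GGG, 2 bases of any kind, TTTCC) on the opposite strand, at positions -14 to -5, which stood in 1.63% of windows. The MAF motif TGCTGAC (4.67% of windows) and the STAT motif (TTC, 3 bases of any kind, GAA, 8.3% of windows) matched in 0 of the 6 windows. The windows of C1qb, C3, Cfp and C5ar1 held no match to any of the 4.

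C1qa encodes the A chain of C1q. It had 1069, 633 and 1249 CPM in TP-18 libraries 1, 2 and 3, against 1536, 468 and 1670.4 CPM in vehicle libraries 1, 2 and 3. The lowest library of the 6 was vehicle 2 and the next was TP-18 2, so both groups held a low library and the vehicle group spanned the TP-18 group. Its log2 fold change was -0.32 ± 0.46 (SE), with a 95% interval of -1.38 to 0.75 and an edgeR adjusted p = 0.761. C1qb, the B chain, had 851, 481 and 947 CPM in TP-18 libraries, against 1247, 381 and 962 CPM in vehicle libraries. The same 2 libraries were lowest, and the log2 fold change was -0.18 ± 0.43 (edgeR adjusted p = 0.859). C1qc, the C chain, had 723, 429 and 902 CPM in TP-18 libraries, against 1042, 356 and 1071 CPM in vehicle libraries. Its estimate was -0.27 ± 0.43 on the log2 scale (edgeR adjusted p = 0.787). In bulk RNA, fewer cells that make C1q and less C1q RNA per cell cannot be told apart.

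The C1q genes kept their proportions while their amount changed several-fold. Within the vehicle group C1qa ranged 3.57-fold, C1qb 3.27-fold and C1qc 3.01-fold, and within the TP-18 group the ranges were 1.97-fold, 1.97-fold and 2.10-fold. Summed, the C1q genes reached 2642, 1543 and 3097 CPM in TP-18 libraries and 3825, 1204 and 3703 CPM in vehicle libraries. C1qa made up 41.1%, 41.7% and 41.0% of the summed C1q FPKM in TP-18 libraries and 40.8%, 39.5% and 45.8% in vehicle libraries. The corresponding shares of C1qb were 32.1%, 31.1% and 30.5% in TP-18 and 32.5%, 31.5% and 25.9% in vehicle libraries. C1qc took 26.8%, 27.2% and 28.5% in TP-18 and 26.7%, 29.0% and 28.3% in vehicle libraries. The share of C1qa was highest, and that of C1qb lowest, in vehicle 3. Of all counts, 0.279%, 0.164% and 0.331% fell in these 3 genes in TP-18 libraries and 0.368%, 0.113% and 0.342% in vehicle libraries.

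**Figure D1:**
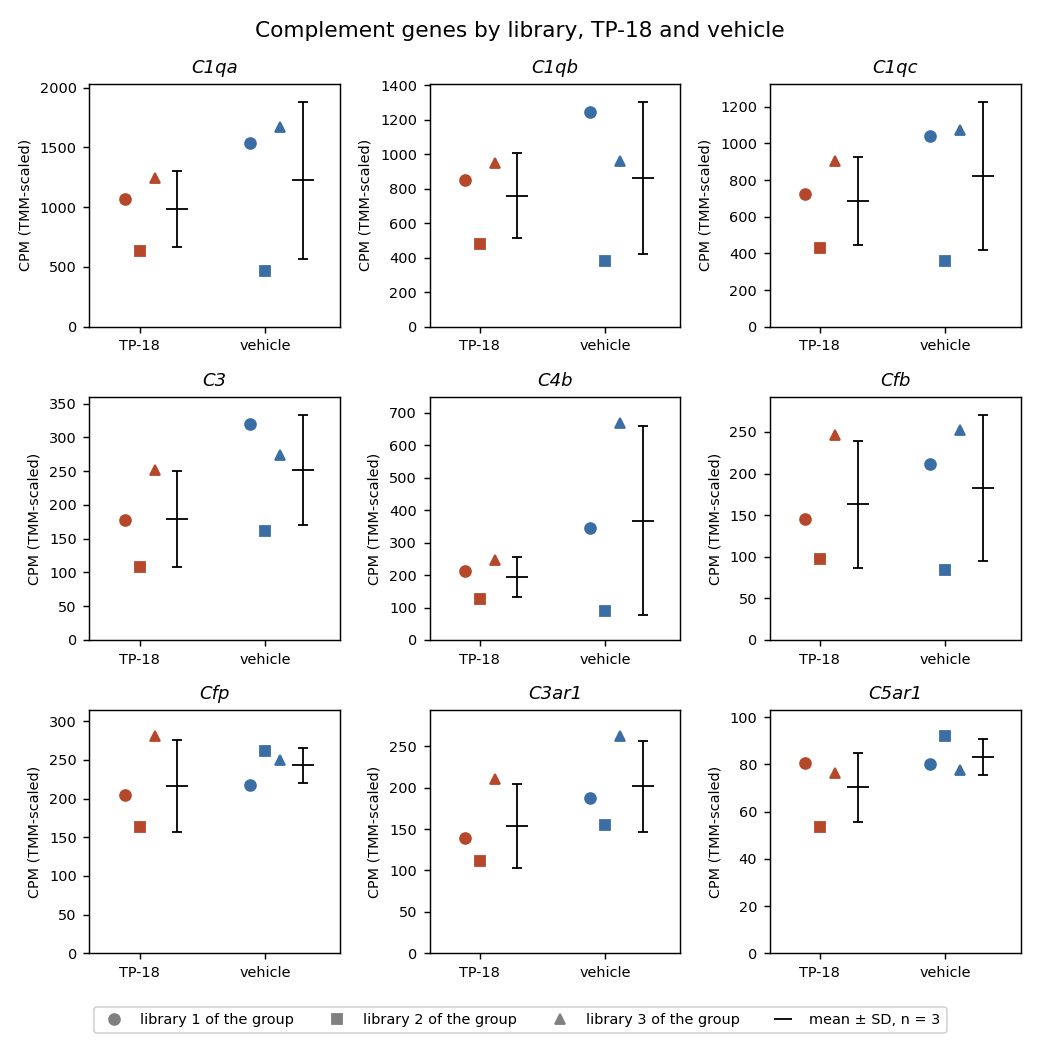
Levels of the 9 complement genes in CPM on TMM-scaled library sizes, with TP-18 libraries in red on the left and vehicle libraries in blue on the right of each panel; symbols give the library number and black marks the mean ± SD (n = 3). In every panel the groups overlap, and for the C1q genes, Cfb and C4b the second library is the lowest of each group.

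C3, the component on which all pathways converge, had 178, 108 and 251 CPM in TP-18 libraries, against 319.6, 162 and 274 CPM in vehicle libraries. Its lowest libraries were TP-18 2 and vehicle 2, and TP-18 3 lay between vehicle 2 and vehicle 3. The log2 fold change was -0.49 ± 0.35, with a 95% interval of -1.29 to 0.31 and an edgeR adjusted p = 0.511. C4b encodes the thioester protein cleaved in the classical and lectin pathways. It had 211, 127 and 247 CPM in TP-18 libraries, against 345, 89.7 and 669 CPM in vehicle libraries. This was the widest range of any member, 7.45-fold within the vehicle group and 1.95-fold within the TP-18 group. The estimate of -0.91 ± 0.61 had a 95% interval of -2.34 to 0.51 (edgeR adjusted p = 0.491). Without vehicle 3 it was -0.16, and without vehicle 2 it was -1.39 (edgeR adjusted p = 0.923 and 0.223), so the size of the C4b difference depended on vehicle 2 and vehicle 3.

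Cfb encodes factor B, the protease subunit of the alternative C3 convertase. It had 145, 97.4 and 246 CPM in TP-18 libraries, against 212, 84.5 and 252 CPM in vehicle libraries. The values of the groups interleaved almost completely, with a log2 fold change of -0.17 ± 0.45 (edgeR adjusted p = 0.881) that was 0.01 with library totals as scaling. Cfp encodes properdin, which stabilises that convertase and is stored by neutrophils and made by monocytes and macrophages. It had 205, 164 and 280.5 CPM in TP-18 libraries, against 218, 261 and 249.7 CPM in vehicle libraries. Both the lowest and the highest value were in TP-18 libraries, and the log2 fold change was -0.17 ± 0.21, with a 95% interval of -0.65 to 0.32 and an edgeR adjusted p = 0.718. With library totals this estimate was 0.01. Cfp did not share the low value of vehicle 2 seen for Cfb, and the FPKM ratio of Cfp to Cfb was 2.39, 2.84 and 1.92 in TP-18 libraries and 1.74, 5.22 and 1.67 in vehicle libraries.

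C3ar1, the receptor for C3a, had 139, 111 and 210.2 CPM in TP-18 libraries, against 188, 155 and 262 CPM in vehicle libraries. TP-18 3 exceeded 2 of the vehicle libraries, and the log2 fold change was -0.39 ± 0.28, with a 95% interval of -1.04 to 0.25 (edgeR adjusted p = 0.513). C5ar1, the main receptor for C5a on myeloid cells, had 80.8, 53.6 and 76.4 CPM in TP-18 libraries, against 80.2, 91.9 and 77.8 CPM in vehicle libraries. It was the steadiest member, with a 1.18-fold range in vehicle and a 1.51-fold range in TP-18 libraries, and TP-18 2 was the low one. Its log2 fold change was -0.25 ± 0.18, with the narrowest 95% interval of the members, -0.66 to 0.17 (edgeR adjusted p = 0.523).

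**Figure D2:**
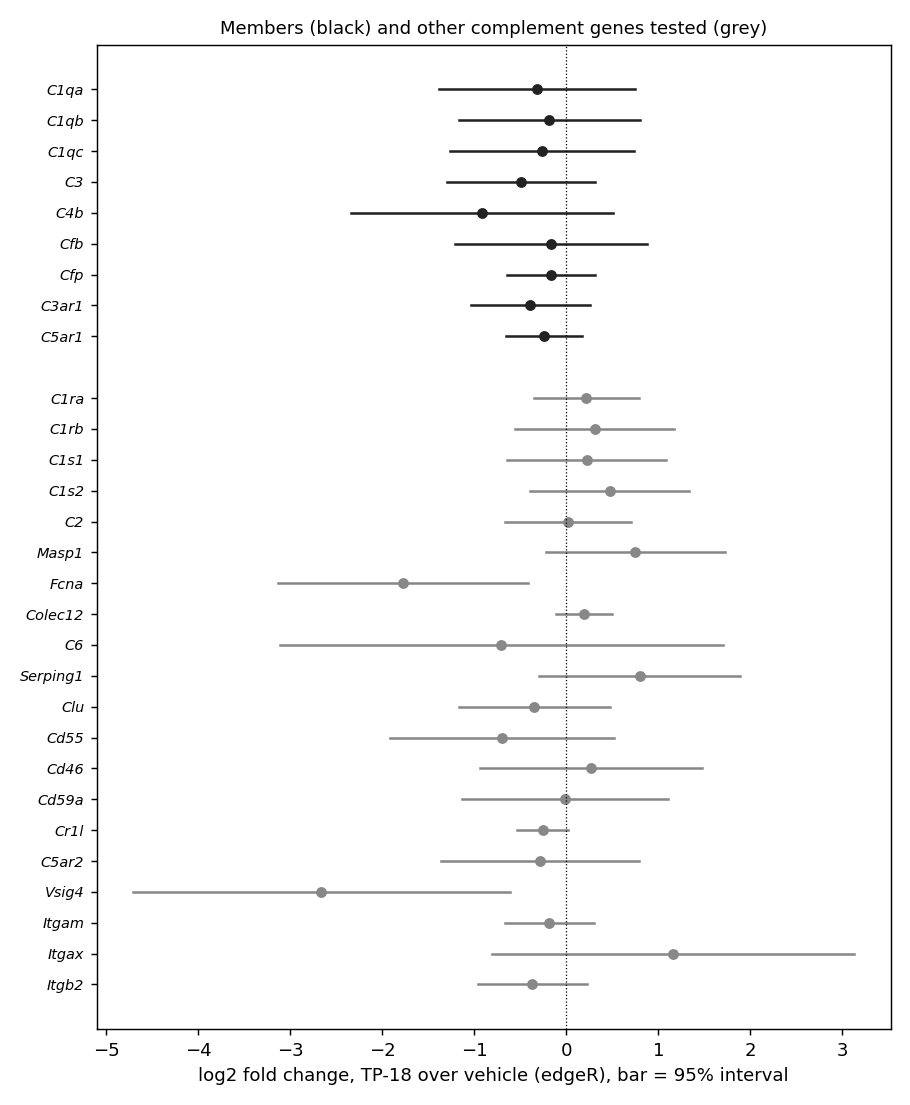
Log2 fold changes of TP-18 over vehicle from edgeR with 95% intervals, for the 9 members in black and other tested complement genes in grey. All 9 member intervals include 0, and the grey intervals of Fcna and Vsig4 lie below 0 before adjustment over all genes.

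Per length, the C1q genes formed a class of their own. In FPKM, C1qa averaged 966 ± 312 in TP-18 and 1065 ± 573 in vehicle libraries, C1qb 731 ± 237 in TP-18 and 738 ± 386 in vehicle libraries, and C1qc 648 ± 228 in TP-18 and 690.4 ± 341 in vehicle libraries. By mean FPKM they ranked 69th, 92nd and 105th of the 12721 tested genes in TP-18 libraries and 76th, 105th and 112th in vehicle libraries. Cfp followed, at 141 ± 39.0 FPKM in TP-18 and 139 ± 10.6 FPKM in vehicle libraries, below every C1q value and above every Cfb value of the same group. The other members lay close together. Cfb had 62.7 ± 29.6 FPKM in TP-18 and 62.2 ± 29.6 FPKM in vehicle libraries, C4b 24.7 to 48.3 in TP-18 and 15.3 to 113 in vehicle libraries, and C3 36.6 ± 14.7 in TP-18 and 45.6 ± 15.3 in vehicle libraries. C3ar1 had 38.0 ± 12.8 FPKM in TP-18 and 44.0 ± 11.4 FPKM in vehicle libraries, and C5ar1 29.0 ± 5.96 in TP-18 and 30.5 ± 2.77 in vehicle libraries. In TP-18 libraries the ranges of each neighbouring pair from Cfb down to C5ar1 overlapped. In vehicle libraries the pairs among C4b, Cfb, C3 and C3ar1 overlapped, and C3ar1 exceeded C5ar1 without overlap. C1qa exceeded C1qb in all 6 libraries, although their ranges overlapped.

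The members differed more between libraries of a group than most genes did. Among 4423 tested genes with a mean of at least 50 CPM, the median within-group SD of log2(CPM + 1) was 0.196. It was 0.811 for C1qa, 0.735 for C1qb, 0.749 for C1qc, 0.759 for Cfb and 1.10 for C4b, above that of 98.7%, 98.3%, 98.3%, 98.4% and 99.4% of these genes. C3 (0.563) and C3ar1 (0.423) exceeded 95.9% and 90.0% of them, while Cfp (0.291) and C5ar1 (0.241) exceeded 75.0% and 64.1%. In 6 of the 9 members the 2 lowest libraries were TP-18 2 and vehicle 2, which held for 6.6% of all tested genes. TP-18 2 was the lowest TP-18 library for all 9, and vehicle 2 the lowest vehicle library for 7, the others being C5ar1 and Cfp.

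**Figure D3:**
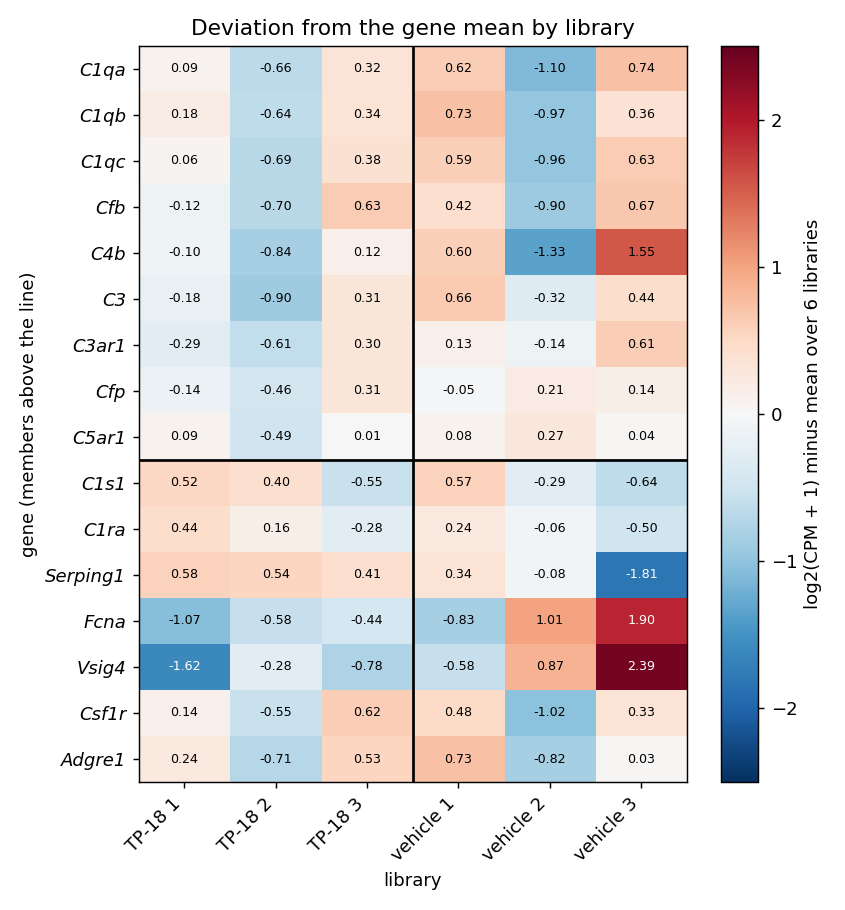
Deviation of log2(CPM + 1) from each gene's mean over the 6 libraries, TP-18 libraries on the left and vehicle libraries on the right, with the 9 members above the line and 7 other genes below it. C1qa, C1qb, C1qc, Cfb and C4b are lowest in vehicle 2, at -0.90 to -1.33, and TP-18 2 is the next lowest, while Fcna and Vsig4 are highest in vehicle 3.

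Likeness of pattern was measured as the root mean square difference between genes of their centred log2(CPM + 1) over the 6 libraries, as a description without a test. The closest members were C1qa and C1qc (0.080), followed by C1qb and C1qc (0.137), C1qc and Cfb (0.149), and C5ar1 and Cfp (0.171). C4b and C5ar1 were the farthest apart (0.941). Of 9188 tested genes with a mean of at least 10 CPM, Csf1r, the receptor of the macrophage growth factor Csf1, lay nearest to the mean of the C1q genes (0.169), followed by the member Cfb (0.189). Next came Man2b1, a lysosomal mannosidase (0.191), Cybb, a subunit of the phagocyte oxidase (0.196), Fnbp1l (0.217) and Fyn, a Src family kinase (0.218). Nearest to Cfb were Plau, the urokinase gene (0.126), Ptpro (0.142), the member C1qc (0.149), Cybb (0.150), Hpgds, a prostaglandin D synthase (0.155), and Gmfg (0.162). Nearest to C4b were Hivep3 (0.270), Dapk1 (0.275), Ctsf, a lysosomal protease (0.350), Tmcc3 (0.415) and Nr4a3 (0.431), with the members C1qa (0.372) and C1qc (0.430) among them. Nearest to C3 were Tlr2, a receptor for bacterial lipoproteins (0.095), Bcl2a1a, a survival gene with close copies (0.142), H2-Q6 (0.162), Lyz2, the macrophage lysozyme (0.172), and Sele (0.174). C5ar1 was nearest to Prkrip1 (0.063), Rex1bd (0.070), Hspd1 and Nop58 (0.077 each) and Cox7a2 (0.080). The member Cfp ranked only 489th in nearness to C5ar1. These members had the smallest within-group SD (0.241 for C5ar1, 0.291 for Cfp), and the measure is small between any genes that vary little.

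Csf1r had 515, 320.2 and 719 CPM in TP-18 libraries, against 656, 229.7 and 590.4 CPM in vehicle libraries, and an edgeR adjusted p = 0.946. It shared the low values of TP-18 2 and vehicle 2. The mean log2(CPM + 1) of the C1q genes exceeded that of Csf1r by 0.75, 0.66 and 0.51 in TP-18 libraries, against 0.94, 0.79 and 1.02 in vehicle libraries. These differences did not overlap between the groups, and they hardly depend on library scaling, since both sides come from the same library. They were chosen after Csf1r was found to be the nearest gene, carry no test, and non-overlap occurred in 23.3% of single genes. Against Adgre1 the C1q excess was 2.05, 2.22 and 1.99 in TP-18 libraries and 2.09, 1.99 and 2.72 in vehicle libraries, with overlapping groups.

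**Figure D4:**
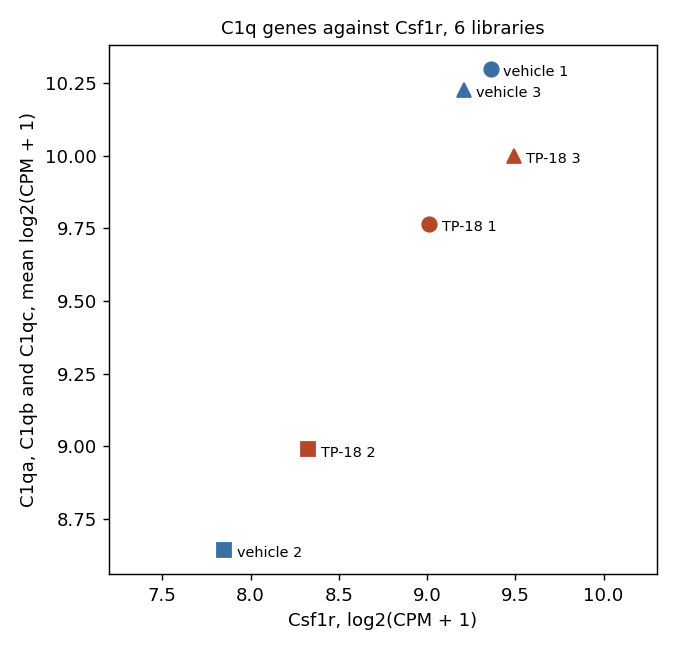
Mean log2(CPM + 1) of C1qa, C1qb and C1qc plotted against that of Csf1r, 1 point per library, TP-18 in red and vehicle in blue. TP-18 2 and vehicle 2 are at the lower left on both axes, and TP-18 3 has the highest Csf1r but a C1q mean below vehicle 1 and vehicle 3.

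Of 44 other complement genes on a list grouped by role, 37 had a row and 21 were tested. By edgeR 0 of 21 passed over all genes (smallest adjusted p = 0.230), with 0 higher and 2 lower at an unadjusted p under 0.05, beside 7.56% and 8.70% of all tested genes. Their median log2 fold change was -0.01, with 10 positive and 11 negative. The C1r and C1s proteases, which are carried by C1q, were present without following it. C1s1 had 129.7, 119 and 61.3 CPM in TP-18 libraries, against 135, 73.9 and 57.8 CPM in vehicle libraries, and C1ra had 61.1, 49.9 and 36.7 CPM in TP-18 libraries, against 53.0, 42.9 and 31.3 CPM in vehicle libraries. In both groups they were lowest in the third library, where C1q was not low. All 5 tested genes of this role, C1ra, C1rb, C1s1, C1s2 and C2, had positive estimates of 0.01 to 0.47, none of which passed, and C1ra and C1rb, and likewise C1s1 and C1s2, are near copies whose counts are uncertain.

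Fcna and Vsig4 were highest in vehicle 3 and next highest in vehicle 2. Fcna, a ficolin of macrophages that recognises sugars in the lectin pathway, had 26.0, 36.9 and 40.8 CPM in TP-18 libraries, against 30.7, 113 and 211 CPM in vehicle libraries. Its log2 fold change was -1.77 ± 0.59 (edgeR unadjusted p = 0.0172, adjusted p = 0.230), and vehicle 1 lay within the TP-18 values. Vsig4, the complement receptor of resident macrophages, had 0.593, 3.04 and 1.86 CPM in TP-18 libraries, against 2.27, 7.93 and 24.7 CPM in vehicle libraries. Vsig4 passed with DESeq2 at a log2 fold change of -2.69 (adjusted p = 0.0165) and not with edgeR (adjusted p = 0.230), and the groups overlapped. Vehicle 3 was the highest library for the members C1qa, C1qc, C4b, C3ar1 and Cfb, and for Fcna and Vsig4. It was also the highest for the scavenger receptor Cd163, at 392.9 CPM. Cd163 is a macrophage marker picked after its values were seen, as Vsig4 was. Cd163 had 19.1, 93.1 and 46.1 CPM in TP-18 libraries, and 26.2 and 134 CPM in vehicle 1 and 2. For Fcna, Vsig4 and Cd163 the part of vehicle 3 was not tested.

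Serping1, the C1 inhibitor, had 45.6, 44.3 and 40.4 CPM in TP-18 libraries, against 38.5, 28.5 and 7.87 CPM in vehicle libraries. Here every TP-18 library lay above every vehicle library, and the estimate of 0.80 ± 0.47 had an edgeR adjusted p = 0.438. Colec12, a scavenger collectin, averaged 98.4 ± 8.40 CPM in TP-18 and 86.2 ± 6.78 CPM in vehicle libraries (adjusted p = 0.497 by edgeR), also without overlap. Cr1l, the mouse membrane regulator Crry, averaged 51.4 ± 3.87 CPM in TP-18 and 61.5 ± 3.13 CPM in vehicle libraries, without overlap and with an edgeR adjusted p = 0.339. Of the 21 tested genes on the list, 2 were thus higher and 1 lower without overlap. Over all tested genes these shares were 11.6% and 11.7%. Cd59a averaged 1.84 ± 0.095 CPM in TP-18 and 1.86 ± 0.975 CPM in vehicle libraries. Itgb2, which pairs with Itgam to form complement receptor 3, averaged 279 ± 39.0 CPM in TP-18 and 360.3 ± 132 CPM in vehicle libraries (edgeR adjusted p = 0.503). Of the terminal components, C6 alone was tested, and the others stayed at or below 0.553 CPM. C6 ranged from 1.19 to 5.13 CPM in TP-18 and from 0.189 to 10.4 CPM in vehicle libraries, and averaged 2.86 ± 2.04 CPM in TP-18 and 4.67 ± 5.21 CPM in vehicle libraries, and C8g averaged 0.181 ± 0.176 CPM in TP-18 and 0.291 ± 0.228 CPM in vehicle libraries. Cfd, the protease that activates factor B, averaged 0.667 ± 0.549 CPM in TP-18 and 0.973 ± 1.03 CPM in vehicle libraries and was not tested.

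Macrophage genes often seen with C1q did not share 1 pattern. Of 16 tested, 0 passed by edgeR, 8 were positive and 8 negative, and the median log2 fold change was -0.07. Apoe, the lipid carrier, had 3119, 2692 and 3229 CPM in TP-18 libraries, against 7763, 3248 and 11102 CPM in vehicle libraries (edgeR adjusted p = 0.212). Lgmn, a lysosomal protease, averaged 1322 ± 189 CPM in TP-18 and 1534 ± 296 CPM in vehicle libraries, and Axl, a receptor for apoptotic cells, 1009 ± 44.8 CPM in TP-18 and 932 ± 59.0 CPM in vehicle libraries. Of 12 transcription factors, 0 passed and 8 were negative, with a median of -0.28. Nfkb1 averaged 204 ± 33.7 CPM in TP-18 and 419 ± 80.7 CPM in vehicle libraries (adjusted p = 0.115 by edgeR), and Cebpb, known at acute-phase promoters, 193 ± 12.9 CPM in TP-18 and 317 ± 34.3 CPM in vehicle libraries (adjusted p = 0.130 by edgeR). Stat3 averaged 225 ± 45.2 CPM in TP-18 and 263 ± 55.2 CPM in vehicle libraries.

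Of 6 cytokines known to act on complement genes, 0 passed and 5 were negative, with a median log2 fold change of -0.47. At an unadjusted p under 0.05, 3 were lower, namely Tnf, Il10 and Il6, beside 8.70% of all tested genes. Tnf had 113, 181 and 239 CPM in TP-18 libraries, against 315, 397 and 543 CPM in vehicle libraries, without overlap (edgeR adjusted p = 0.165). Il10 also did not overlap, at 24.7 ± 5.54 CPM in TP-18 and 41.1 ± 6.91 CPM in vehicle libraries (adjusted p = 0.207 by edgeR). Il6, picked after its values were seen, had 4.15, 7.38 and 4.15 CPM in TP-18 libraries, against 9.71, 35.6 and 25.2 CPM in vehicle libraries, also without overlap. Its log2 fold change of -2.17 ± 0.48 was the largest of the list (edgeR adjusted p = 0.147). Il1b averaged 403 ± 148 CPM in TP-18 and 431 ± 58.1 CPM in vehicle libraries, and Tgfb1 120.4 ± 24.0 CPM in TP-18 and 139 ± 17.7 CPM in vehicle libraries. C3 and Cfb, both known to be induced by such cytokines, overlapped between the groups in the same libraries. A link between the cytokines and C3 or Cfb was not tested.

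Summed monocyte and neutrophil markers varied with the same libraries, though not every marker of these lists did. Of the 6 monocyte markers, all tested, 0 passed, and their summed level was 205, 855 and 290.3 CPM in TP-18 libraries and 139, 1193 and 564 CPM in vehicle libraries, highest where C1q was lowest in each group. Chil3, the most abundant, had 19.8, 323 and 17.9 CPM in TP-18 and 8.91, 758 and 258 CPM in vehicle libraries. Vcan, the next, had 53.8, 362 and 68.7 CPM in TP-18 and 28.0, 238 and 229 CPM in vehicle libraries. Ccr2, picked after its values were seen, had 40.3, 32.6 and 112 CPM in TP-18 and 31.1, 17.1 and 11.7 CPM in vehicle libraries. Among TP-18 libraries Ccr2 was thus lowest in TP-18 2, and its groups did not overlap (edgeR adjusted p = 0.230). Of the neutrophil markers 6 of 7 had a row, with S100a8 and Mmp9 the most abundant. They summed to 68.0, 148 and 91.0 CPM in TP-18 and 68.5, 157 and 89.2 CPM in vehicle libraries. TP-18 2 and vehicle 2 were again on top. Csf3r of this list, also picked after its values were seen, went the other way. It had 23.0, 15.2 and 41.3 CPM in TP-18 and 40.7, 14.5 and 23.0 CPM in vehicle libraries. The 8 macrophage markers, 0 of which passed, summed to 2328, 2379 and 2912 CPM in TP-18 and 2673, 2111 and 3738 CPM in vehicle libraries. The range of this sum was narrower than that of C1q, but its genes went different ways. Csf1r, Adgre1 and Msr1 were lowest of each group in TP-18 2 and vehicle 2, as C1q was. The within-group SD of Csf1r (0.719) and Adgre1 (0.715) was near that of C1q. Mrc1, Mertk and Cd163 were instead highest in TP-18 2 among TP-18 libraries, and Cd68 and Fcgr1 did neither. Each gene of these lists that had a row had a count in at least 1 library. The part of monocyte and neutrophil RNA in the C1q pattern was not tested.

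The remaining marker lists had 0 genes past the threshold. The 8 fibroblast markers, led by Col1a2 and Col3a1, were all positive. At an unadjusted edgeR p under 0.05, 7 were higher, beside 7.56% of all tested genes. They summed to 1487 to 1846 CPM in TP-18 and 742 to 1199.6 CPM in vehicle libraries without overlap. Serping1 was likewise higher in every TP-18 library, and the part of fibroblast RNA in this was not tested. Endothelial markers, led by Pecam1 and Plvap, summed to 94.4 to 167 CPM in TP-18 and 32.2 to 156 CPM in vehicle libraries. Carcinoma markers summed to 244 to 510.2 CPM in TP-18 and 343 to 531 CPM in vehicle libraries, nearly all of it from Krt20. The next most abundant of them, Krt18, averaged 3.60 ± 1.30 CPM in TP-18 and 4.11 ± 2.49 CPM in vehicle libraries. Mast cell markers, led by Tpsb2 and Kit, summed to 10.6 to 32.4 CPM in TP-18 and 3.24 to 5.65 CPM in vehicle libraries. Of these 5 markers, 4 were higher at an unadjusted edgeR p under 0.05. Low sums were found for T and NK cells (Cd3e, Cd8a), at 3.47 to 14.6 CPM in TP-18 and 3.46 to 15.1 CPM in vehicle libraries, and for dendritic cells (Zbtb46, Ccr7), at 4.94 to 6.39 CPM in TP-18 and 8.43 to 14.3 CPM in vehicle libraries. B cell markers (Cd79b, Cd79a) summed to 2.44 to 8.30 CPM in TP-18 and 1.20 to 3.93 CPM in vehicle libraries.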

How the data were processed

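The authors deposited raw counts per gene and a second table of FPKM values, with 6 libraries in each. The tools named are fastp, HISAT2 and HTSeq and the build is GRCm38, per the submitters' processing notes. Tool versions, annotation release and strand use are not given in the sources used here. Each deposited FPKM equals the count divided by the library total and 1 length per gene, checked on 16135 genes with a relative tolerance of 0.001. Here counts were filtered with filterByExpr (minimum count 10, minimum total 15), scaled with TMM and tested with edgeR 4.0.16 in R 4.3.3, quasi-likelihood, two-sided, without covariates, with Benjamini-Hochberg adjustment over all tested genes at 0.05. CPM use TMM-scaled sizes, SE is the absolute log2 fold change over the square root of F, and intervals are 95%. No 2 libraries agreed within sampling noise. Positions come from GENCODE M21 by Entrez identifier. The scripts were tested on simulated data, where 11 of 84 calls were false. Of the genes changed there, 3 of 67 were recovered at 1.5-fold, 19 of 67 at 2-fold and 51 of 66 at 4-fold. The depth of 16371128 to 17597645 counts per library leaves little counting error for the members, and the 3 libraries per group limit the precision. Alternatives used RLE or library totals, other filters, DESeq2 1.42.0, limma 3.58.1 (voom, or log2 of FPKM plus 1 or 0.1), a replicate block and each library left out. Same-numbered libraries did not all deviate together, so numbers were not taken as pairs. Named genes were the members, the 2 most abundant of each pathway role and marker list, the 4 most abundant of each context list, any that passed, and the 5 nearest in pattern with a mean of at least 10 CPM. Some genes that this rule takes are not reported here. Members and lists were chosen with earlier results of these data known. Figures were drawn with matplotlib 3.10.9.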

Additional observations from a re-analysis of the deposited data

How the results depend on the processing

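Over 15 alternatives, 0 of the 9 members passed in any, and of 135 member estimates 121 kept their sign. Smallest member adjusted p ranged from 0.223 to 0.663. The 14 reversals were all of estimates that never passed. On log2(FPKM + 1) the estimates were 0.0088 for C1qa, 0.0986 for C1qb, 0.0078 for C1qc and 0.0507 for Cfb, and on log2(FPKM + 0.1) they were 0.0090, 0.099, 0.0080 and 0.0529. With library totals Cfb was at 0.0132 and Cfp at 0.0138. Leaving out 1 library gave -0.551 to 0.155 for C1qb and -0.592 to 0.13 for Cfb, and -0.719 to -0.0335 for C1qa, with the lowest value without vehicle 2 and the highest without vehicle 3. The 10 reversals with library totals or FPKM came with a shift of all genes, whose median moved to 0.20 with library totals, 0.15 on log2(FPKM + 1) and 0.20 on log2(FPKM + 0.1), against 0.02 with TMM; the other 4 came with 1 library fewer. At an unadjusted edgeR p under 0.05, 2 members were lower without vehicle 2 (C1qa and C4b), and 2 without TP-18 3 (C3 and C3ar1). With a replicate block 2 were lower as well (C3 and C3ar1), and the adjusted p of all these were 0.223 to 0.418. In the same order of settings, 1835 of 12971, 1518 of 12940 and 1943 of 12721 tested genes were under that p in either direction.

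Across all genes the 14 calls became 4 with library totals, 27 without a filter, 566 with DESeq2, 2 on either FPKM scale, 3 with a replicate block and 0 to 8 with 1 library left out. Of the other complement genes, 1 (Vsig4) was called with DESeq2. The replicate numbers correlated at 0.229, 0.387 and -0.148 between the groups in deviations from the group means, so the block was not taken as a pairing. With 3 libraries per group and the spread shown by C1q and C4b, differences as large as the ends of the intervals given could have gone uncalled. The smallest difference that could be called was not computed.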
